A study of Mus musculus with 9 samples.

Results

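Collagen transcripts were followed in whole liver from diabetic mice with steatohepatitis, with and without insulin, and from normal mice. The members are all array probes outside the controls whose RefSeq accession maps to a mouse symbol made of Col, a type number, the letter a and a chain number. This rule found 63 of 55681 probes and 43 of 20972 named genes. Of the 44 collagen symbols in the RefSeq gene table, Col12a1 had no matched probe. The genes fall into 11 fibrillar collagens, 6 collagens of basement membranes (all of type IV) and 26 other collagens.

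Collagens are secreted proteins whose alpha chains wind around each other into a stiff helix. Fibrillar collagens such as types I, III and V pack side by side into the fibrils of scar tissue, and in fibrotic liver they are made mainly by activated stellate cells and portal fibroblasts. Type IV collagen forms a sheet-like network under epithelium and endothelium, type VI forms beaded filaments between cells and fibrils, and types IX, XIV and XVI sit on the surface of fibrils.

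RNA came from 9 male mice aged 20 weeks, 3 in each group, with 1 array per mouse. STAM-NON mice had received streptozotocin, which destroys insulin-secreting cells, shortly after birth and were then fed a high-fat diet, without insulin. STAM-INS mice had the same streptozotocin and diet and were injected under the skin with insulin glargine, a long-acting insulin. Normal mice are labelled as normal and untreated, and the study describes such mice as lean. The study names C57B/6J as the strain of its STAM mice. Streptozotocin and diet were given together, so that their shares in a difference between STAM and Normal livers cannot be told apart. Nothing in the labels says whether a piece of liver held tumour. In whole liver, fewer cells of a type and less RNA per cell cannot be told apart.

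Levels are given as centred log2 signal, the log2 intensity of a probe minus the 75th percentile of its array. They are compared between mice for 1 probe, not between probes. The share of spots well above background was 59.3%, 47.8% and 63.1% in STAM-NON mice 1 to 3, and 65.0%, 47.8% and 49.8% in STAM-INS mice 1 to 3. In the Normal mice it was 46.2%, 49.2% and 51.1%. STAM-NON 1, STAM-NON 3 and STAM-INS 1 therefore stood apart from the other 6 arrays. For most tested collagen genes, log2 differences between STAM-NON and Normal are given below with and without them. Those of Col18a1 were -0.37, then -0.31, and those of Col4a6 were -0.75, then -0.97. Differences of Col4a5, Col11a2, Col4a4, Col7a1, Col20a1, partner genes and markers are given with all arrays only. On STAM-NON 2, the 5 collagen genes in this list read -3.28, -3.63, -3.22, -1.63 and -2.52 in this order. Their Normal means were -3.31, -3.44, -3.03, -2.01 and -2.20. The Normal arrays shared 1 slide and the STAM arrays another, so for comparisons with Normal slide and group cannot be told apart. The label of liver was borne out by the hepatocyte markers, of which all 8 were measured. Alb, the gene of serum albumin, lay between 10.16 and 10.67 on all 9 arrays.

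To be tested, a gene needed a probe well above background throughout 1 of the groups. This held for 22 of the 43 collagen genes, namely 8 of 11 fibrillar, 5 of 6 basement membrane and 9 of 26 other collagens. Of the 21 genes that were not tested, 9 were not well above background on any array. They include Col2a1, the main collagen of cartilage, Col10a1 of growing cartilage, Col17a1 of skin, and Col4a3, a chain of the kidney filter. The other 12 were measured on some arrays. Col13a1, a transmembrane collagen, was measured on 2 of 3 arrays in each group, whereas Col23a1, Col25a1, Col24a1 and Col6a6 were measured on 2 STAM-NON arrays, 1 STAM-INS array and no Normal array. The dimmest signal well above background was lower on STAM-NON 1, STAM-NON 3 and STAM-INS 1 (-4.80, -5.40 and -4.95) than on the other arrays (-4.09 to -3.68). Dim genes could therefore count as measured on these 3 arrays at levels that were background elsewhere. Col24a1 is a case, with -4.35 and -4.24 on STAM-NON 1 and 3, where it was measured, and -4.21 on Normal 2, where it was not.

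**Figure D1:**
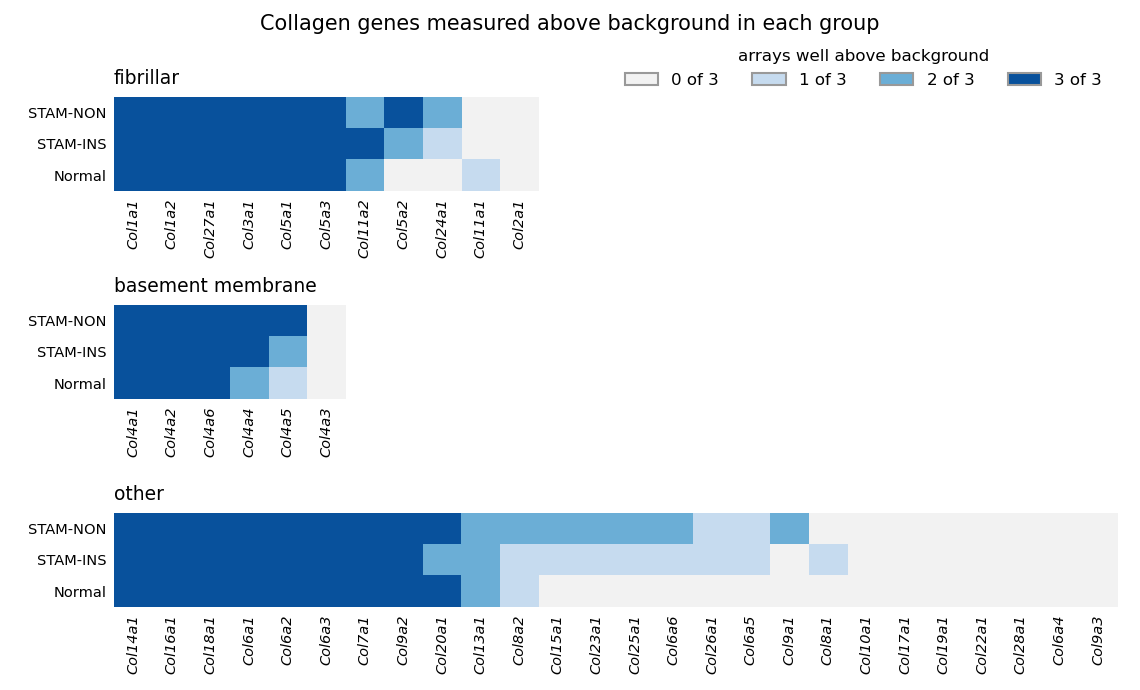
Number of arrays (0 to 3, by shade) in each group on which a collagen gene was well above background, by the probe that stands for a tested gene or by any probe of an untested gene. Shown are 43 genes, of which 22 were measured on all 3 arrays of at least 1 group and 9 on no array.

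STAM-NON and Normal livers were compared to see which collagens differ in the untreated disease model. Of the 22 tested collagen genes, 4 passed the threshold as higher in STAM-NON, namely Col5a1, Col4a2, Col6a3 and Col14a1, and 1 passed as lower, Col9a2. These are 18.2% and 4.55% of the tested collagen genes, where 7.94% of 13389 tested genes were called higher and 8.39% lower. Differences were above 0 for 15 collagen genes and below 0 for 7, and their median was 0.77 against -0.10 over all tested genes. At an unadjusted limma p under 0.05, 10 were higher and 3 lower, against 14.9% and 20.7% of all tested genes. The 3 STAM-NON livers all lay above the 3 Normal livers for 11 of the 22 collagen genes, against 15.2% of all genes, and all below them for 4 (18.2%, against 25.3%). Col5a2 and Col4a5 entered the test through STAM-NON alone. Both are among the 15 genes above 0, and Col5a2 is among the 11 without overlap.

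The calls, for collagens as over all genes, depended on single mice. Without STAM-NON 1, STAM-NON 3, Normal 2 or Normal 3, limma called 0 collagen genes. It called 1 without Normal 1, 2 without STAM-INS 2 or STAM-INS 3, and 12 without STAM-NON 2. Without STAM-INS 1 it called 5, with Col1a1 and Col3a1 in place of Col4a2 and Col5a1. Over all tested genes, calls moved from 2187 to 679, 890, 536 and 436 without STAM-NON 1, STAM-NON 3, Normal 2 and Normal 3. They were 575 without Normal 1, 1735, 1825 and 1648 without STAM-INS 1, STAM-INS 2 and STAM-INS 3, and 3363 without STAM-NON 2. Leaving out the 3 arrays of highest detection left STAM-NON 2 alone in its group, so only differences are given. Col4a2 then differed by 0.35, Col5a1 by 0.38, Col14a1 by 0.43, Col6a3 by 0.58 and Col9a2 by -0.88, all in the same direction as with all arrays. With the row of the slide as a block limma called 0 collagen genes and 6 genes in all. The differences were then 1.35 for Col4a2, 0.62 for Col5a1, 1.02 for Col14a1, 0.46 for Col6a3 and -1.45 for Col9a2. Row and group coincide here, STAM-NON being in row 1 and Normal in row 2, and the fit takes the row effect from STAM-INS 1 in row 1 against STAM-INS 2 and 3 in row 2. With arrays centred on the E1A spike-in controls, 5 collagen genes were called higher and 0 lower, and with the percentile taken over probes measured on all arrays 4 were called higher and 0 lower. Over all genes, 1636 and 1773 were called. These settings moved the median over all genes from -0.10 to 0.16 and 0.06, and centring on the array median moved it to -0.26.

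**Figure D2:**
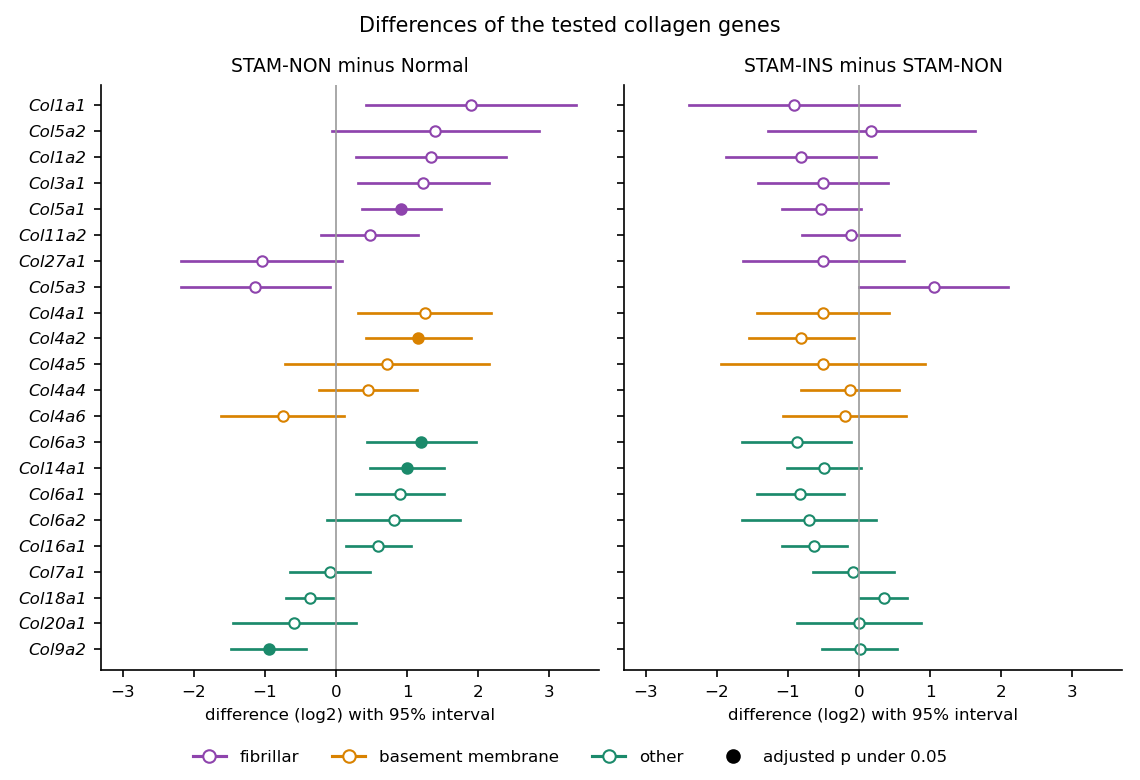
Difference in centred log2 signal with its 95% interval from limma for the 22 tested collagen genes, on the left STAM-NON minus Normal and on the right STAM-INS minus STAM-NON. Filled points passed an adjusted p of 0.05, which 5 did on the left and 0 on the right, where 17 of 22 points lie below 0.

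Type I collagen, the bulk of scar tissue, is built from the chains of Col1a1 and Col1a2. Col1a1 measured 2.66, 1.18 and 1.58 in STAM-NON mice 1 to 3, 2.19, 0.57 and -0.11 in STAM-INS mice 1 to 3, and -0.04, 0.65 and -0.89 in Normal mice 1 to 3. Each STAM-NON liver was above each Normal liver, while STAM-INS 1 lay among the STAM-NON values and STAM-INS 3 among the Normal ones. The difference between STAM-NON and Normal was 1.90 (SE 0.65, limma adjusted p 0.0774), a 3.73-fold higher mean that did not pass the threshold. Col1a2 measured 4.16, 2.74 and 3.55 in STAM-NON, 3.60, 2.24 and 2.18 in STAM-INS, and 2.26, 2.47 and 1.73 in Normal. Again the STAM-NON and Normal livers did not overlap, and STAM-INS 1 was far above the other STAM-INS livers. Its difference from Normal to STAM-NON was 1.33 (SE 0.46, limma adjusted p 0.0813). Without the 3 arrays of highest detection the differences were 1.27 for Col1a1 and 0.59 for Col1a2. With slide row as a block both were -0.06, with the sign turned.

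Promoter stretches are printed for Col1a2 and for the called genes Col5a1, Col6a3 and Col9a2. The RefSeq promoter table (GRCm38.p6) had an entry for 35 collagen genes, 19 of them tested. It had none for the called gene Col14a1, and for Col4a2 only the start shared with Col4a1 is printed. The 150 bases before the start of Col1a2, at chr6:4505468-4505617 on the plus strand, are shown as the promoter of a main scar collagen, 5′ to 3′, with matches to CCAAT or GGGCGG on either strand in capitals.
Col1a2: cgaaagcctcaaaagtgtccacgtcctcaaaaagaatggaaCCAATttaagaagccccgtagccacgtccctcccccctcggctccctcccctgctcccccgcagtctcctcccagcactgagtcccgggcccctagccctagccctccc
The CCAAT box is the letter pattern that the factor NF-Y is known to bind, and GGGCGG is the core of the GC box. Within 250 bases before the start, 8 of the 19 tested genes held CCAAT on either strand, against 33.8% of 32851 promoters in the table, and 13 held GGGCGG, against 32.7%. Such matches are descriptions of the sequence.

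Col3a1, the chain of type III collagen that forms thin fibrils beside type I, measured 2.71, 1.77 and 2.06 in STAM-NON, 2.48, 1.58 and 0.97 in STAM-INS, and 0.92, 1.37 and 0.56 in Normal. The order of the mice was that of Col1a1, with STAM-NON 1 and STAM-INS 1 highest and no overlap between STAM-NON and Normal. The difference was 1.23 (SE 0.40, limma adjusted p 0.0704). It was 0.82 without the 3 arrays of highest detection and 0.03 with slide row as a block. The TATAAA pattern, found in 12.4% of all promoters, was present for 2 of the 19 tested genes, Col3a1 and Col11a2.

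Type V collagen starts and limits the width of type I fibrils. Col5a1 measured -0.20, -1.07 and -0.34 in STAM-NON, -0.86, -1.07 and -1.26 in STAM-INS, and -1.19, -1.54 and -1.65 in Normal. All STAM-NON livers were above all Normal livers, and the gap between STAM-NON 2 and Normal 1 was small. Col5a1 was 1.89-fold higher in STAM-NON (difference 0.92, SE 0.24, limma adjusted p 0.0393), and passed the threshold under 11 of 26 alternative settings. The stretch before its start, chr2:27886275-27886424 on the plus strand, is shown because Col5a1 was the fibrillar gene that passed, with matches in capitals as above.
Col5a1: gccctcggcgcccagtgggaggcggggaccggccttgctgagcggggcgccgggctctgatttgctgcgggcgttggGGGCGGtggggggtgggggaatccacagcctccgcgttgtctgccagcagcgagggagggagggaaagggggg
Its partner chain Col5a2 stayed at background in all Normal livers and was measured on all 3 STAM-NON and 2 STAM-INS arrays. Col5a2 measured -3.72, -2.83 and -3.12 in STAM-NON and -1.80, -3.76 and -3.60 in STAM-INS, where STAM-INS 1 was the highest of all. The STAM-NON mean was at least 1.60-fold above the Normal floor (limma adjusted p 0.154), and the STAM-INS mean at least 1.80-fold (limma adjusted p 0.130). Col5a2 entered the test through STAM-NON alone, so these bounds are descriptions. By measured means its difference between STAM-NON and Normal was 1.40, and 1.79 without the 3 arrays of highest detection. With slide row as a block it turned to -0.49.

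Some fibrillar genes had lower means in STAM-NON. Col5a3, another type V chain, measured 0.54, 2.45 and 1.93 in STAM-NON, 2.36, 2.73 and 2.97 in STAM-INS, and 2.49, 2.55 and 3.28 in Normal. STAM-NON 1, the liver highest in type I and III transcripts, was lowest here, and the STAM-NON and Normal livers did not overlap. The difference was -1.13 (SE 0.46, limma adjusted p 0.118), and -0.32 without the 3 arrays of highest detection. Col27a1, a fibrillar collagen known from cartilage, measured -2.92, -1.10 and -1.33 in STAM-NON, -2.61, -2.65 and -1.58 in STAM-INS, and -0.79, -1.09 and -0.34 in Normal. Both STAM groups lay below Normal, by 1.04 (SE 0.49, limma adjusted p 0.169) and 1.54 (SE 0.49, limma adjusted p 0.0718). Without the 3 arrays of highest detection the first difference was -0.36. The remaining tested gene of the class, Col11a2, overlapped between groups and differed by 0.48.

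**Figure D3:**
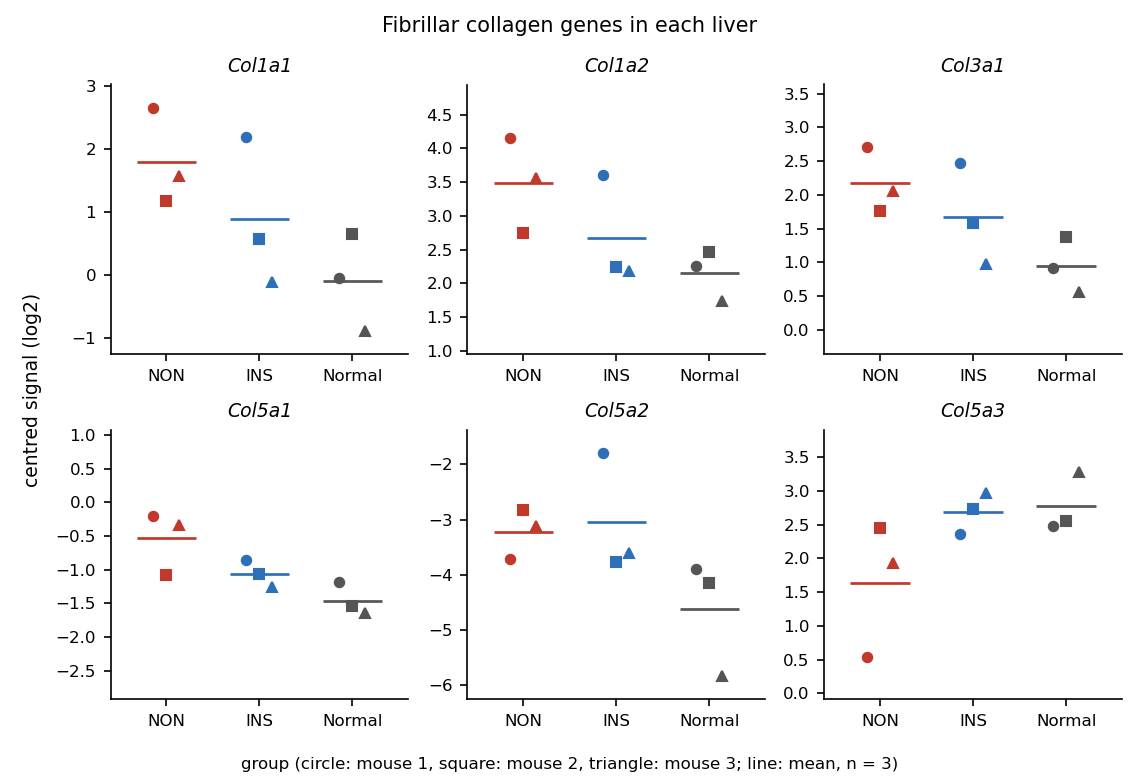
Centred log2 signal of 6 fibrillar collagen genes in each liver, with the mouse number as the symbol and the group mean (n = 3) as a line. Axis ranges differ between genes. For Col1a1, Col1a2 and Col3a1 the circle of STAM-INS 1 lies near the STAM-NON values, and Col5a3 runs in the other direction.

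Type IV collagen of most basement membranes is assembled from the products of Col4a1 and Col4a2, which lie head to head. In the promoter table Col4a1 runs on the minus strand and Col4a2 on the plus strand, and their annotated starts overlap by 22 bases at chr8:11312805-11312826, shown on the plus strand because both transcripts begin in it. Matches are not put in capitals in this stretch, which holds the GGGCGG pattern.
Col4a1 and Col4a2: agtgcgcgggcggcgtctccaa
Col4a1 measured 1.79, 0.00 and 1.49 in STAM-NON, 0.55, 0.87 and 0.33 in STAM-INS, and -0.15, -0.14 and -0.17 in Normal. The Normal livers were nearly level, with an SD of 0.02, whereas STAM-NON 2 lay close to them and the other STAM-NON livers far above. The probe was printed on 10 spots of each array, and the SD over spots of 1 array was between 0.04 and 0.11, far below the SD of 0.96 between STAM-NON mice. The difference between STAM-NON and Normal was 1.25 (SE 0.41, limma adjusted p 0.0698), and 0.15 without the 3 arrays of highest detection.

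Col4a2 measured 2.20, 0.87 and 1.98 in STAM-NON, 0.74, 1.08 and 0.79 in STAM-INS, and 0.31, 0.79 and 0.46 in Normal. The same STAM-NON livers 1 and 3 were high, and STAM-NON 2 exceeded Normal 2 only slightly. Col4a2 was 2.24-fold higher in STAM-NON (difference 1.16, SE 0.32, limma adjusted p 0.0450), passing under 9 of 26 alternative settings. Col4a6, a chain of smooth muscle basement membranes, measured -0.48, -1.52 and -1.88 in STAM-NON, -1.42, -1.39 and -1.67 in STAM-INS, and -1.04, 0.05 and -0.66 in Normal. It overlapped between STAM-NON and Normal, and STAM-INS lay below Normal by 0.94 (SE 0.38, limma adjusted p 0.127). Its head-to-head neighbour Col4a5, whose start lies 1342 bases away on chromosome X, differed by 0.72 (SE 0.63) between STAM-NON and Normal. Of the 2 tested probes of Col4a4, 1 was higher by 0.45 and the other lower by 0.25, so that its direction is not settled.

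Type VI collagen is assembled from the chains of Col6a1, Col6a2 and Col6a3. Col6a1 measured 2.08, 1.09 and 1.98 in STAM-NON, 0.89, 1.07 and 0.72 in STAM-INS, and 0.91, 1.03 and 0.50 in Normal. STAM-NON 1 and 3 stood well above all other livers, and STAM-NON 2 was level with the upper end of the rest. Its difference between STAM-NON and Normal was 0.90 (SE 0.27, limma adjusted p 0.0541). Col6a2 measured -1.03, -2.50 and -1.29 in STAM-NON, -1.81, -2.45 and -2.67 in STAM-INS, and -2.82, -1.94 and -2.50 in Normal. The same mice were highest, yet the groups overlapped, with a difference of 0.81 (SE 0.41, limma adjusted p 0.192). These differences were 0.28 for Col6a1 and -0.08 for Col6a2 without the 3 arrays of highest detection.

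Col6a3 measured 1.68, 0.42 and 1.04 in STAM-NON, 0.66, -0.10 and -0.05 in STAM-INS, and 0.04, -0.02 and -0.49 in Normal. STAM-NON and Normal did not overlap, and STAM-INS 1 was within the STAM-NON range. Col6a3 was 2.30-fold higher in STAM-NON (difference 1.20, SE 0.34, limma adjusted p 0.0467), passing under 12 of 26 alternative settings. The stretch before its start, chr1:90843972-90844121 on the minus strand, is shown as that of a gene that passed, and held neither pattern.
Col6a3: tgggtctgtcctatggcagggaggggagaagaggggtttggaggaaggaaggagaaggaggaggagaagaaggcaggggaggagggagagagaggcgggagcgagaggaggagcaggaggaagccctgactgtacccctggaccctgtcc

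Col14a1, a collagen of fibril surfaces, had the smallest limma p of the collagen genes. It measured 3.23, 2.53 and 3.54 in STAM-NON, 2.60, 2.65 and 2.59 in STAM-INS, and 2.20, 2.03 and 2.06 in Normal. On this probe both STAM groups lay wholly above Normal, and the STAM-INS livers were close together with an SD of 0.03. Col14a1 was 2.01-fold higher in STAM-NON than in Normal (SE of the log2 difference 0.23, 95% interval 0.48 to 1.52, limma adjusted p 0.0270). A second probe overlapped between the groups, with a difference of 0.74 between STAM-NON and Normal (limma adjusted p 0.125) and 0.15 between STAM-INS and Normal (limma adjusted p 0.765). Col14a1 as a gene, not this second probe, passed the threshold between STAM-NON and Normal under 14 of 26 alternative settings. Col16a1, of the same family, measured 1.32, 0.61 and 0.96 in STAM-NON, 0.61, 0.30 and 0.11 in STAM-INS, and 0.49, 0.24 and 0.36 in Normal. On this probe STAM-NON lay above Normal throughout and STAM-INS spread around it. Col16a1 was higher in STAM-NON than in Normal by 0.60 (SE 0.20, limma adjusted p 0.0758). A second probe gave 0.66 (limma adjusted p 0.151), with overlapping groups. The first gave 0.24 without the 3 arrays of highest detection.

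Col9a2, a chain of type IX collagen known from cartilage, was the collagen gene called lower. Col9a2 measured -2.82, -2.78 and -2.93 in STAM-NON, -2.50, -3.09 and -2.92 in STAM-INS, and -2.38, -1.80 and -1.52 in Normal. All 6 STAM livers lay below all 3 Normal livers. It was 1.92-fold lower in STAM-NON (difference -0.94, SE 0.23, limma adjusted p 0.0323) and 1.91-fold lower in STAM-INS (difference -0.93, SE 0.23, limma adjusted p 0.0351). Neither call was kept with arrays centred on spike-ins or on the percentile over probes measured on all arrays, although both differences stayed below 0 under all 26 alternative settings. The stretch before its start, chr4:121039416-121039565 on the plus strand, is shown for the gene that fell, with matches in capitals as above.
Col9a2: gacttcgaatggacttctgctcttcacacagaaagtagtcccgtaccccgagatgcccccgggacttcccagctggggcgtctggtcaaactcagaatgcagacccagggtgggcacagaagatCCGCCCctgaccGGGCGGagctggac

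Col18a1, a collagen of basement membrane zones that hepatocytes are known to make, measured 6.35, 6.71 and 6.88 in STAM-NON, 6.91, 7.05 and 7.03 in STAM-INS, and 6.95, 7.03 and 7.06 in Normal. The STAM-NON livers were all below the others, by a small margin, with STAM-NON 1 lowest. The difference between STAM-NON and Normal was -0.37 (SE 0.14, limma adjusted p 0.110), and the other tested probe differed by -0.39. Col15a1, its relative from the basement membranes of vessels, had 3 probes and none was tested. Its brightest probe measured -4.11, -3.93 and -3.81 in STAM-NON and -3.74, -4.60 and -3.75 in STAM-INS, being well above background on 2 STAM-NON arrays, 1 STAM-INS array and no Normal array. Col7a1 of anchoring fibrils differed by -0.08 and Col20a1 by -0.58, both with overlapping groups. On a second tested probe of Col20a1 both STAM groups lay wholly below Normal. That probe differed by -0.77 for STAM-NON (limma adjusted p 0.155) and -0.83 for STAM-INS (limma adjusted p 0.146).

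**Figure D4:**
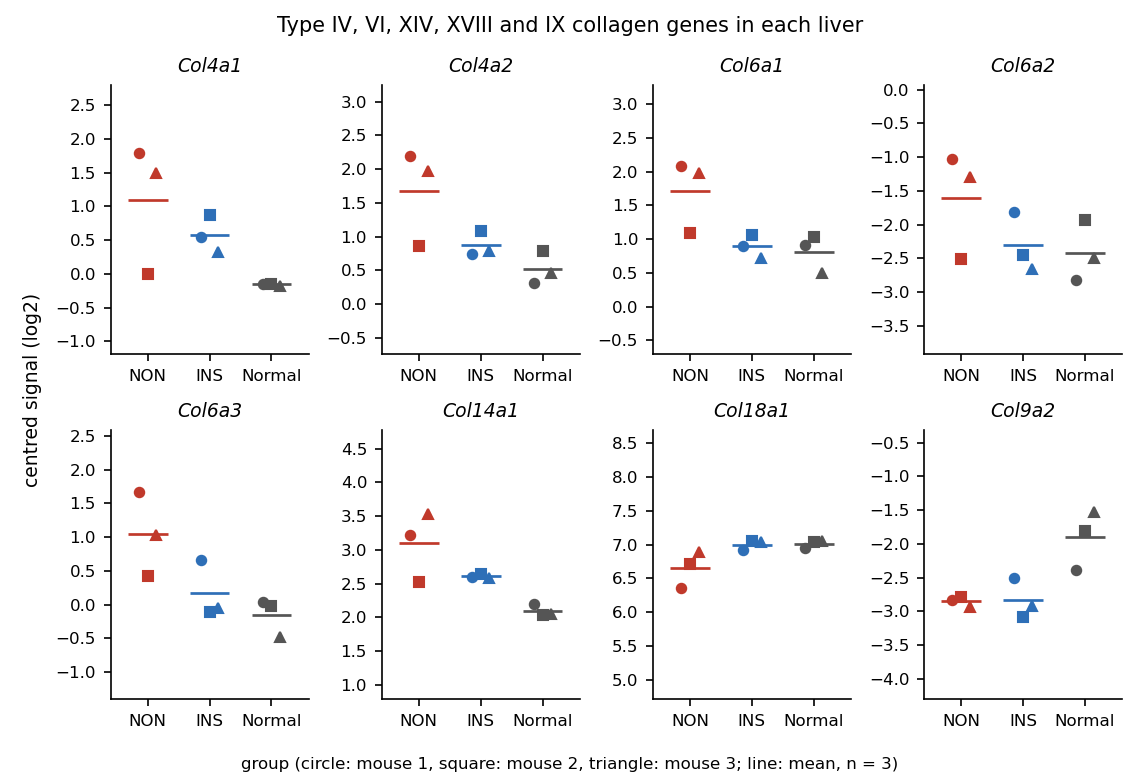
Centred log2 signal of collagen genes of types IV, VI, XIV, XVIII and IX in each liver, with the mouse number as the symbol and the group mean (n = 3) as a line. Axis ranges differ between genes. In the type IV and VI genes the square of STAM-NON 2 lies near the Normal livers, while Col9a2 is low in all 6 STAM livers.

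The classes were compared by the median difference of their tested genes less the median over all tested genes, as a description with no test. Between STAM-NON and Normal this was 1.18 for fibrillar, 0.83 for basement membrane and 0.70 for other collagens. The spread of a class median between mice of a group (pooled SD) was 0.41, 0.57 and 0.27 in the same order. The basement membrane median difference (0.72) is that of Col4a5, which entered the test through STAM-NON alone and measured -1.25, -3.28 and -3.23 there. Col5a2, which entered in the same way, is part of the fibrillar median. The fibrillar median in single STAM-NON mice, taken against the Normal mean, was 1.08, 0.49 and 1.12, in STAM-INS mice 1.02, 0.36 and 0.11, and in Normal mice 0.01, 0.21 and -0.29. For basement membrane collagens it was 1.68, 0.03 and 0.98 in STAM-NON and 0.61, 0.00 and 0.27 in STAM-INS, with Normal mice between -0.23 and 0.32. The 3 arrays with the largest share of spots above background were the 3 highest in the fibrillar and in the basement membrane class. The part of that share in the result was not tested. Without those arrays the class medians were 0.50, 0.04 and 0.26. All tested genes together had a median between -0.14 and 0.01 in each mouse.

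**Figure D5:**
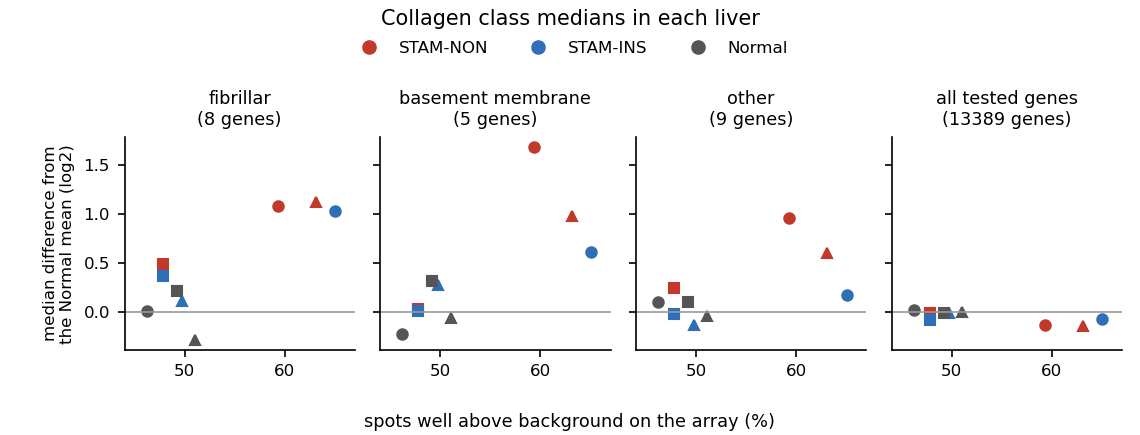
Median difference of a collagen class from the Normal mean in each liver (log2), against the share of spots well above background on its array, with the mouse number as the symbol. STAM-NON 1, STAM-NON 3 and STAM-INS 1, at 59.3% to 65.0%, are highest for fibrillar and basement membrane collagens, and the median of all 13389 tested genes stays near 0.

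The mice of a group did not rank alike in all genes, but few mice held most extremes. Of the 22 tested genes, STAM-NON 1 was the highest of its group in 13 and STAM-NON 2 the lowest in 14. STAM-INS 1 was the highest of its group in 13.

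STAM-INS and STAM-NON livers were compared to see whether collagens differ with insulin. No collagen gene of the 22 passed the threshold in limma (0 called, against 0.0822% of all tested genes). At an unadjusted limma p under 0.05, 4 were lower in STAM-INS and 2 higher, against 4.59% and 4.75% of all tested genes. The methods' t-test at its threshold, an unadjusted p under 0.05, gave 0 collagen genes, against 791 over all tested genes. Differences were below 0 for 17 genes and above 0 for 5, with a median of -0.50 against 0.03 over all tested genes. Of the 15 genes above 0 between STAM-NON and Normal, 14 were below 0 between STAM-INS and STAM-NON. Both differences contain the STAM-NON arrays, so this count is a description.

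The 4 lower genes at an unadjusted p were Col6a1, Col6a3, Col4a2 and Col16a1. Col6a1 differed by -0.82 (SE 0.27, 95% interval -1.44 to -0.21, limma adjusted p 0.487) and Col16a1 by -0.63 (SE 0.20, 95% interval -1.09 to -0.16, limma adjusted p 0.485). For both genes each STAM-INS liver was below each STAM-NON liver, by a very small margin for Col16a1, where STAM-INS 1 and STAM-NON 2 both read 0.61. Separation of this kind, lower in STAM-INS, held for 2 collagen genes (9.09%) and for 4.93% of all tested genes. The second probe of Col16a1 overlapped between these groups and differed by -0.87 (limma adjusted p 0.491). Col6a3 differed by -0.88 (SE 0.34, limma adjusted p 0.531) and Col4a2 by -0.81 (SE 0.32, limma adjusted p 0.542), with STAM-NON 2 inside the range of STAM-INS. Without the 3 arrays of highest detection, Col6a1 differed by -0.20, Col6a3 by -0.50, Col16a1 by -0.40 and Col4a2 by 0.07. Col4a1 and Col14a1 then differed by 0.60 and 0.09, in place of -0.51 and -0.48 with all arrays. The differences of Col1a1, Col1a2 and Col3a1 were -0.94, -0.54 and -0.49 in that setting.

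The 2 higher genes at an unadjusted p were Col5a3 and Col18a1, both among the 7 genes below 0 between STAM-NON and Normal. Col5a3 differed by 1.05 (SE 0.46, 95% interval 0.00 to 2.09, limma adjusted p 0.566) and Col18a1 by 0.35 (SE 0.14, 95% interval 0.02 to 0.68, limma adjusted p 0.549). Without the 3 arrays of highest detection these differences were 0.40 and 0.34. With all arrays, Col9a2, Col27a1 and Col4a6, also among the 7, differed by 0.01, -0.50 and -0.20. Col18a1 was the 1 tested collagen gene (4.55%) that was higher in STAM-INS without overlap, against 7.71% of all tested genes. For the scar collagens the intervals were wide. Col1a1 differed by -0.92 (95% interval -2.39 to 0.56), Col1a2 by -0.81 (-1.87 to 0.24) and Col3a1 by -0.50 (-1.42 to 0.42), with limma adjusted p of 0.725, 0.644 and 0.767. Within slide row 1, which holds the STAM-NON arrays and STAM-INS 1, the fibrillar median less that of all genes was 0.19, in place of -0.53 with all arrays.

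STAM-INS and Normal livers were compared to see which collagens differ from normal under insulin. Col9a2 was called lower, and no collagen gene was called higher, where 7.29% and 6.18% of all tested genes were. At an unadjusted limma p under 0.05, 1 collagen gene was higher, Col5a2, and 3 were lower, Col9a2, Col27a1 and Col4a6, against 14.1% and 17.9% of all tested genes. The STAM-INS mean lay between the means of the other groups for 17 of the 22 genes. Col14a1 differed by 0.52 (SE 0.23, limma adjusted p 0.155) and Col4a1 by 0.74 (SE 0.41, limma adjusted p 0.244). In both cases every STAM-INS liver lay above every Normal liver, though the second Col14a1 probe overlapped between these groups. Such separation, higher in STAM-INS, held for 3 of the 22 collagen genes (13.6%) and 2409 of 13389 tested genes. Lower in STAM-INS, it held for 3 (13.6%) and 3581. The call of Col9a2 was lost without STAM-INS 2, STAM-INS 3, Normal 2 or Normal 3, 2 genes were called without STAM-NON 1 and 3 without STAM-NON 2. Without the 3 arrays of highest detection Col14a1 was called instead.

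Collagen chains are modified, folded, exported and trimmed by other proteins, whose genes were taken from short lists. Their counts between STAM-NON and Normal, and those of the cell type markers, stand beside 7.94% of all tested genes called higher and 8.39% called lower. Counts there at an unadjusted limma p under 0.05 stand beside 14.9% higher and 20.7% lower. Calls between STAM-INS and Normal stand beside 6.18% higher and 7.29% lower. Of 12 tested genes for prolyl and lysyl hydroxylation and their partners, 2 rose in STAM-NON against Normal and none fell, with a median difference of 0.09. P3h4, part of a lysyl hydroxylation complex, was higher by 1.35 (limma adjusted p 0.0303) and Crtap, which helps hydroxylate single prolines, by 0.97 (limma adjusted p 0.0367). Of 8 genes for folding and export, 3 rose and 1 fell, with a median of 0.29. Fkbp10, a collagen chaperone of the endoplasmic reticulum, measured 1.75, 0.36 and 1.11 in STAM-NON, 0.12, -0.00 and -0.43 in STAM-INS, and -0.47, -0.47 and -0.63 in Normal. It was above every Normal liver in every STAM-NON liver (difference 1.60, SE 0.32, limma adjusted p 0.0186).

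Fkbp14, a related chaperone, was higher by 0.53 (limma adjusted p 0.0373), and Mia3, which loads procollagen into transport carriers, fell by 0.58 (limma adjusted p 0.0395). Kdelr3, a receptor that returns proteins to the endoplasmic reticulum, stayed at background in Normal livers, and its STAM-NON mean was above the Normal floor by at least 2.55-fold (limma adjusted p 0.00260). It entered the test through STAM-NON alone, so that its place among the 3 is a description. Serpinh1, the collagen chaperone HSP47, differed by 0.89 (limma adjusted p 0.0656). Of 6 genes for propeptide cleavage 1 rose, with a median of 0.56. This was Pcolce, the enhancer of the procollagen C-proteinase, which measured 4.22, 3.39 and 4.90 in STAM-NON, 3.92, 4.68 and 3.31 in STAM-INS, and 2.76, 2.69 and 2.61 in Normal. All STAM livers lay above all Normal livers, with a difference of 1.48 (limma adjusted p 0.0475) for STAM-NON and 1.29 (limma adjusted p 0.0739) for STAM-INS.

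Of 6 proteoglycans that bind fibrils, 1 rose and 1 fell, with a median of 0.26. Lum, lumican, was higher by 1.14 (limma adjusted p 0.0289), and Ogn, osteoglycin, fell by 1.31 (limma adjusted p 0.0309). In STAM-INS against Normal Ogn fell by 1.60 (limma adjusted p 0.0173) and Podn fell by 1.02 (limma adjusted p 0.0223). Of 6 collagen receptors, 3 rose and none fell, with a median of 0.76. Ddr1, a receptor kinase of epithelial cells, measured -0.12, -1.76 and -1.09 in STAM-NON, -1.86, -1.07 and -2.31 in STAM-INS, and -2.98, -3.36 and -3.35 in Normal. Both STAM groups were wholly above Normal, with a difference of 2.24 (limma adjusted p 0.0174) for STAM-NON. Ddr2, the related kinase of mesenchymal cells, was higher by 0.62 (limma adjusted p 0.0306) and Lair1, an inhibitory receptor of immune cells, by 0.90 (limma adjusted p 0.0108).

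Laminins, nidogens and other partners of type IV collagen in basement membranes gave 0 of 16 calls in limma, with 15 differences above 0, 3 at an unadjusted p under 0.05, and a median of 0.57. Nid1, which bridges laminin and type IV collagen, measured 2.48, 1.15 and 3.11 in STAM-NON, 1.68, 2.32 and 1.34 in STAM-INS, and 0.82, 0.94 and 0.79 in Normal. STAM livers were all above Normal livers, with a difference of 1.40 (limma adjusted p 0.0694) for STAM-NON. In STAM-INS against Normal 1 of the 16 was called, Nid2. Between STAM-INS and STAM-NON, limma called 0 genes in each of the partner lists. At an unadjusted p under 0.05, 1 hydroxylation gene was lower, and 1 folding and export gene was higher and 2 were lower. By the same count, 3 proteoglycans and 2 receptors were lower, and 1 basement membrane partner was higher and 3 were lower. Over all tested genes, 4.75% were higher and 4.59% lower at this p.

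Markers of the cells that make collagens or lie beside them were read in the same way. Of 9 tested myofibroblast markers 3 rose in STAM-NON and none fell, with a median of 0.91. Loxl2, a crosslinking enzyme of collagen, was higher by 2.01 (limma adjusted p 0.0300) and Postn, periostin, by 1.22 (limma adjusted p 0.0456). Timp1, an inhibitor of matrix proteases, also stayed at background in Normal livers, and exceeded the Normal floor by at least 7.69-fold in STAM-NON (limma adjusted p 0.0165) and at least 4.38-fold in STAM-INS (limma adjusted p 0.0324). Timp1 entered the test through STAM livers alone, so that its place among the 3 is a description. The summed level of the list (log2 of the summed centred signals) was 4.87 to 5.27 in STAM-NON, 4.47 to 4.98 in STAM-INS and 4.12 to 4.66 in Normal.

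Markers of quiescent stellate cells gave 0 of 10 calls in limma and 2 at an unadjusted p under 0.05 (summed level 6.38 to 7.31, 6.38 to 6.48 and 6.39 to 6.66 in the same order). Of 5 tested portal fibroblast markers, 2 rose, Fbln2 and Entpd2 (summed level 2.55 to 3.35, 2.33 to 2.73 and 1.89 to 2.27). Smooth muscle markers gave 0 of 4 calls in limma, also at an unadjusted p (1.20 to 1.78, 1.28 to 1.33 and 1.17 to 1.88). Of 10 endothelial markers, 2 rose, Lyve1 and Plvap, while Kdr differed by -0.27 and Clec4g by -0.59 without overlap or a call (6.29 to 6.82, 5.70 to 6.59 and 6.44 to 6.58). Of 5 tested cholangiocyte markers 3 rose, Krt7, Spp1 and Sox9 (1.93 to 3.21, 1.88 to 2.49 and 0.85 to 1.63). Of 8 macrophage markers 5 rose, Gpnmb, Trem2, Cd14, Cd5l and Clec4f, with a median of 1.43, Gpnmb having entered the test through STAM-NON alone (7.22 to 8.09, 6.91 to 8.26 and 6.04 to 6.68). Hepatocyte markers were all below 0, with a median of -0.24, and 1 of 8 fell, Cps1 of the urea cycle (11.98 to 12.44, 12.38 to 12.57 and 12.52 to 12.56). Of the cartilage and bone list 2 of 7 on the array were tested, Sox9, which rose by 0.97, and Acan, which entered the test through Normal and fell by 2.09, while Matn3, Ibsp and Ucma were at background on all arrays. Adipocyte markers were represented by Cfd alone, with 0 calls in limma, also at an unadjusted p, and a summed level of -1.56 to 1.71, -3.76 to -0.11 and -3.17 to -0.96, and Lep was at background on all arrays. The summed level of the cartilage and bone list was -1.28 to -0.98, -0.82 to -0.36 and -1.11 to -0.66. The part of these cell types in the collagen results was not tested.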

How the data were processed

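RNA of 9 mouse livers (3 groups of 3) was hybridised to 1-colour Agilent 8x60K arrays, 1 per mouse. The deposited files hold spot intensity from Agilent Feature Extraction 11.5.1.1, which the authors' scanner software had background-subtracted within each array and not normalized between arrays. Flagged outlier and control spots were dropped, log2 intensity was centred on the 75th percentile of each array, and spots of a probe were averaged. Probes were named through RefSeq accessions without version, which matched 27656 of 55681 probes. Testing needed a share of 0.5 or more of a probe's spots to be well above background, on each of the 3 arrays of any 1 group. All 9 arrays were fitted in limma 3.58.1 (R 4.3.3) without covariates, and p-values were adjusted by Benjamini-Hochberg over 26289 probes with a threshold of 0.05. The probe of highest mean stood for a gene. A fold against a group at background is a bound, set by each array's dimmest signal well above background or the probe's own value. On simulated data, 84% of 200 probes changed by 2 (log2) were recovered for STAM-NON against Normal, with 2.89% false calls. The tested collagen genes differed there by at most 1.90, and recovery of such smaller changes was not simulated.

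Values in every array are given for collagen genes called in any comparison, for the main liver collagens of types I, III, IV, V, VI, XIV, XV and XVIII, and for the 3 largest differences in each direction; values of Col16a1 were added after its results were seen. The members and lists were chosen with earlier results of these data known. The normexp alternative used the median spot signal, since a mean signal was not used here. Other alternatives were other centrings, filters, spread estimates, probe choices, blocks, the methods' t-test and leaving out arrays. Cell type lists overlap, and liver expresses many of their genes. The number of arrays limits the precision.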

Additional observations from a re-analysis of the deposited data

How the results depend on the processing

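The direction of each of the 5 collagen genes called between STAM-NON and Normal was kept under all 26 alternatives, while the calls were not; the cause was not tested. Against 5 calls there, 7 were made with normexp (without Col14a1 and Col5a1), 6 with a variance trend and 6 with only probes measured on all arrays. Quantile normalization gave 3 and centring on the array median 2. The methods' t-test at its threshold, an unadjusted p under 0.05, gave 7 (including Col1a1, Col1a2 and Col3a1) and 3727 over all tested genes. No collagen call was made without a filter on dim probes, with only the 2 groups compared or with slide row as a block. Nor was any made with the methods' t-test after Benjamini-Hochberg. Over all genes these settings gave 110, 1132, 6 and 10 calls, against 2187 as reported. The setting without the 3 arrays of highest detection was added after seeing the data and left 1 STAM-NON liver. Leaving out 1 array gave 0 to 12 collagen calls. Of 17 genes given with values, 4 changed sign between STAM-NON and Normal under 1 alternative each (Col1a1, Col1a2, Col5a2 and Col6a2), 9 between STAM-INS and STAM-NON and 5 between STAM-INS and Normal, with no call for them in the results as reported. Between STAM-INS and Normal, against 1 call, 2 were made with normexp and with array-median centring and 3 with only the 2 groups compared. The methods' t-test at its threshold gave 5 (4591 over all tested genes, against 1804 in limma as reported). Spike-ins and the percentile over detected probes gave 0, and leaving out 1 array gave 0 to 3. Between STAM-INS and STAM-NON, 0 were called in limma under each alternative. Replicate numbers did not pair the samples (correlations of deviations between same-numbered samples from -0.29 to 0.15); with the replicate block, 3 genes were called between STAM-NON and Normal, 0 between STAM-INS and Normal and 0 between STAM-INS and STAM-NON.

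Class medians less that of all genes moved beyond the spread between mice as follows. For STAM-NON against Normal, fibrillar collagens (1.18) gave 0.40 with normexp, 0.58 without filter, 0.0073 with slide row as a block and 0.50 without the 3 arrays; basement membrane collagens (0.83) gave 0.093 with the row block and 0.044 without the 3 arrays; other collagens (0.70) gave 0.28 without filter, 0.14 with the row block and 0.26 without the 3 arrays. For STAM-INS against STAM-NON, fibrillar collagens (-0.53) gave 0.19 with the row block and within the shared row, basement membrane collagens (-0.53) gave 0.10 without the 3 arrays, and other collagens (-0.51) gave -0.12 without filter, -0.22 with the row block and within the shared row, -0.19 without the 3 arrays, and -0.84 to -0.27 when leaving out 1 array (lowest without STAM-NON 2). For Col5a2, not above background in Normal, the measured means gave 2.64-fold in place of at least 1.60-fold. Dim probes limit the 21 untested genes.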
